A study of Mus musculus with 16 samples.

Results

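The odorant receptor genes described here are those with the symbols Olfr90 to Olfr137, pseudogenes excluded, which lie on mouse chromosome 17 beside the major histocompatibility complex (MHC). The mouse annotation lists 45 receptor symbols in that range, and 43 were measured, of 1080 odorant receptor genes and 19505 genes in all. Olfr100 and Olfr102 were not analysed here. Each member had a single probe set, all 43 are placed on chromosome 17 by that annotation, and the other 1037 odorant receptor genes served for comparison.

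RNA was measured on 16 Clariom S arrays in 4 groups of 4, from the olfactory mucosa of S100a5-tauGFP mice, of both sexes and 7 to 12 weeks old. In these animals green fluorescent protein is made under S100a5, which encodes a calcium-binding protein and follows the recent activity of olfactory neurons, so it marks cells and not a receptor. Each mouse stayed alone for 40 h in clean air (3.1 L per min), and from 26 h on it received 10 s pulses every 20 min of either cigarette smoke odour or filtered air, the vehicle. The 24 mice made 8 pools of 3, and every pool was sorted by fluorescence into a GFP+ and a GFP- fraction. The groups are thus vehicle GFP+, smoke GFP+, vehicle GFP- and smoke GFP- cells of the same mouse line. Replicate numbers name the pools. All 16 sample titles name cigarette smoke as the odour, while the design text of the series names bourgeonal, a floral odorant. The titles were followed, so smoke here means the odour they name.

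A mature olfactory sensory neuron usually expresses one odorant receptor gene from one allele, and that receptor sets which odorants the cell answers. The level of a receptor RNA in sorted cells therefore depends on how many neurons chose the gene and on how much receptor RNA each holds, which cannot be told apart in bulk samples. The receptors near the MHC have been studied because they are inherited together with MHC genes, which influence individual body odour. Members of one subfamily (MOR names, taken from the synonyms in the RefSeq annotation) are close in sequence. The 43 genes fall into MOR256 (16 genes), MOR218 (9), MOR263 (7), MOR156 (5), MOR250 (3), MOR249 (Olfr110) and MOR121 (Olfr96), and Olfr111 has no MOR name there. For most of them no odorant is given in the sources used here. Olfr124, also named MOR256-3 or SR1, is known as a receptor that answers an unusually wide range of odorants.

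The DNA before the start of 6 of these genes is shown first. RefSeq (GRCm38.p6) gave a window from 250 bases before to 50 bases after the annotated start for 34 of the 43 members. In 22 of these the gene model begins at the start codon, so the window is not the promoter, and 12 have another start. Only the annotated start itself was checked for ATG, so these 12 windows need not be promoters either. The 6 shown are among these 12, which do not include Olfr99, Olfr112 or Olfr116. Olfr110 (chr17:37492218-37492517, plus strand) and its neighbour Olfr111 (chr17:37529707-37530006, plus strand) went opposite ways between the sorted fractions, and their windows matched at 160 of 258 aligned bases (62.02%). Olfr101 (chr17:37300435-37300734, minus strand), which shared the direction of Olfr110, matched it at 160 of 254 bases (63.0%). Gaps were left out of these shares, and no windows of unrelated genes were aligned as a baseline. The shares therefore say nothing about the directions.
Olfr110: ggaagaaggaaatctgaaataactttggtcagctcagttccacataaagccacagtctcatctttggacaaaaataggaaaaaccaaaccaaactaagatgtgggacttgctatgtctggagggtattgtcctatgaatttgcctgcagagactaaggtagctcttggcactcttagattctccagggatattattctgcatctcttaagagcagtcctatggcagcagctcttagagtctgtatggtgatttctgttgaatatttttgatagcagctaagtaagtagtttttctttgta
Olfr111: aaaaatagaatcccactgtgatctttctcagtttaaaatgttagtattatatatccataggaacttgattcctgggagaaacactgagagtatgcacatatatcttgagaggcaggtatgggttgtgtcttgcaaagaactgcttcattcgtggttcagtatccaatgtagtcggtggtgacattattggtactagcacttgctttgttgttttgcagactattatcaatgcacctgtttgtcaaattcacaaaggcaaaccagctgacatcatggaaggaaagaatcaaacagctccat
Olfr101: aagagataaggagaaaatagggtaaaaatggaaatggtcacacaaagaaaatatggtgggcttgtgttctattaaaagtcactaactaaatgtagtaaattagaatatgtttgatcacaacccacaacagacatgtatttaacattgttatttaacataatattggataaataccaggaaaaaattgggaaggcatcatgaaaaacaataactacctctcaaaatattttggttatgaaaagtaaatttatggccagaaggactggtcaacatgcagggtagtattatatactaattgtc
Olfr119 (chr17:37696435-37696734, plus strand) and Olfr122 (chr17:37768392-37768691, plus strand), both of MOR263, matched at 258 of 283 bases (91.2%). Capitals mark TAATGA or its reverse complement, which is a core that homeodomain proteins can bind.
Olfr119: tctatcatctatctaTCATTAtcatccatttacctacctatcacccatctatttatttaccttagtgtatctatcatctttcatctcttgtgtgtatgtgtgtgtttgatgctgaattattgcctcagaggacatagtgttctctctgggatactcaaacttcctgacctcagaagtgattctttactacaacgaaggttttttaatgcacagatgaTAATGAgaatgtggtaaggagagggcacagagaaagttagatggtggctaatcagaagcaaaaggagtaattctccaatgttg
Olfr122: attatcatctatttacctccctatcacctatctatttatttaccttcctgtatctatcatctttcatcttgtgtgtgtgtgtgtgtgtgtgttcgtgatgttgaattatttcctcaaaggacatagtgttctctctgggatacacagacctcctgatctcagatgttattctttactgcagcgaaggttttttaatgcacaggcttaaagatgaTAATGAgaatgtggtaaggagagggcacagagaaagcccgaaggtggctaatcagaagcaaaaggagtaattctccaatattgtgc
Olfr124 (chr17:37804819-37805118, plus strand) holds TAATTA, the other homeodomain core searched, in capitals.
Olfr124: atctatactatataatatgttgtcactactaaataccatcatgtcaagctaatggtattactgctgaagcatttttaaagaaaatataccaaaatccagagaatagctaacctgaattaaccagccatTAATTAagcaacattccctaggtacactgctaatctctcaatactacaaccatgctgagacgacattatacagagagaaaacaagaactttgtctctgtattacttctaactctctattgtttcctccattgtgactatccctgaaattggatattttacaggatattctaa
On either strand, TAATTA was found in 1 of the 12 member windows (Olfr124, at -122 from the start), in 18.8% of 240 windows of other receptors not beginning at ATG and in 5.29% of all 32851 windows. TAATGA was found in 4 of the 12 (Olfr107, Olfr108, Olfr119 and Olfr122), in 34.6% of the other receptors and in 9.78% of all windows. CCCNNGGG, the core of the sites bound by the Ebf transcription factors of olfactory neurons, was found in 2 of the 12, Olfr96 and Olfr108. The match lies at 33, past the start, in Olfr96 and at -107 in Olfr108. The same core was found in 6.67% of the other receptors and in 13.7% of all windows. These matches are letters only, and neither the calls nor the directions below were tested against them.

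The arrays of a group correlated across genes at r of 0.988 to 0.995, with medians of 7.87 to 7.96 in GFP+ and 8.19 to 8.29 in GFP- cells. S100a5 was at 16.39 to 16.51 in vehicle and 16.80 to 17.14 in smoke GFP+ cells, and at 14.91 to 15.47 and 15.51 to 16.08 in GFP- cells. The fractions thus stood in the order of the labels. In each fraction every smoke array also read higher than every vehicle array for this gene, under which the sorted GFP is made, and its part in receptor values compared between exposures was not tested. Omp, the marker of mature olfactory neurons, was at 18.06 to 18.29 on every array. All 8 immune markers measured were lower in GFP+ cells in both exposures, with a list mean of 7.69 to 8.30 in GFP+ and 12.91 to 14.11 in GFP- cells, and 2 of the 8 were at the background level defined below in GFP+ cells. The same held for the 5 microvillar cell markers (6.45 to 6.94 against 9.58 to 9.93) and for 4 of 7 markers of immature neurons (list mean 11.32 to 11.57 against 12.67 to 13.06). Sustentacular (supporting) cell markers averaged 11.69 to 12.16 in GFP+ cells of vehicle mice, 11.89 to 12.90 in those of smoke mice, and 12.32 to 13.02 in GFP- cells. Of these 8 markers, 6 were lower in the GFP+ fraction of vehicle mice and 2 in that of smoke mice. Basal cell markers were lower for 3 of 6 in each exposure and endothelial and stromal markers for 1 of 6. Gland and respiratory markers were lower for 3 of 7 in vehicle mice, and in smoke mice 1 was higher and 1 lower. Of 8 mature neuron markers, 4 were higher in the GFP+ fraction of vehicle mice and 2 in that of smoke mice, and 0 lower. The part of these other cells in the receptor values was not tested. Background was set by the vomeronasal receptors, a family used in another organ, as their 95th percentile on each array (6.14 to 6.78). Of the members, Olfr108 in 3 groups and Olfr128 in vehicle GFP+ cells were at or below it, and 41 were above it in every group. Of the 1037 other receptors, 114 to 131 were at or below it.

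The receptors beside the MHC were divided between the sorted fractions, and the division was alike in vehicle and smoke mice. In vehicle mice 25 of the 43 were higher in GFP+ cells and 10 were lower (limma, adjusted p at most 0.05 over all genes). The same calls were made for 24.2% and 15.4% of all genes, and for 52.3% and 19.1% of the other odorant receptors, against 58.1% and 23.3% of the members. In smoke mice 18 were higher and 13 lower, 41.9% and 30.2% of the members, against 18.3% and 14.4% of all genes and 49.5% and 21.7% of the other receptors. The median difference of the members, GFP+ minus GFP-, was 0.67 in vehicle and 0.22 in smoke mice on the log2 scale. Over the other receptors it was 0.77 and 0.64, and over all genes 0.17 and 0.15. The smoke median of the members was 0.11 without smoke GFP- replicate 3, 0.12 without smoke GFP- replicate 2 and 0.36 after quantile normalization. The shares of members called were thus near those of the other receptors. In vehicle mice the 4 GFP+ and 4 GFP- arrays did not overlap for 21 higher and 10 lower members (23.8% and 15.1% of all genes), and in smoke mice for 14 and 12 (16.3% and 13.5%).

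With both exposures required, 17 members were higher in GFP+ cells (39.5%, against 12.9% of all genes and 44.0% of the other receptors). Another 10 were lower (23.3%, against 12.9% and 16.1%), and 16 did not have the same call in both exposures. No member was called in opposite directions, and 38 of the 43 had the same sign in both. Across the 43 genes the vehicle and smoke differences had a Pearson r of 0.98, over points that come from separate pools but share the probe sets, and genes are not independent replicates. When each array was left out in turn, 25 of these 27 members kept both calls. Olfr115 (0.72 and 0.73) lost a call when any single one of 12 arrays was left out, with an adjusted p of up to 0.120 (without vehicle GFP+ replicate 2). Olfr123 (0.79 and 0.60) lost one with any single one of 11 left out, with an adjusted p of up to 0.170 (without smoke GFP- replicate 3).

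**Figure D1:**
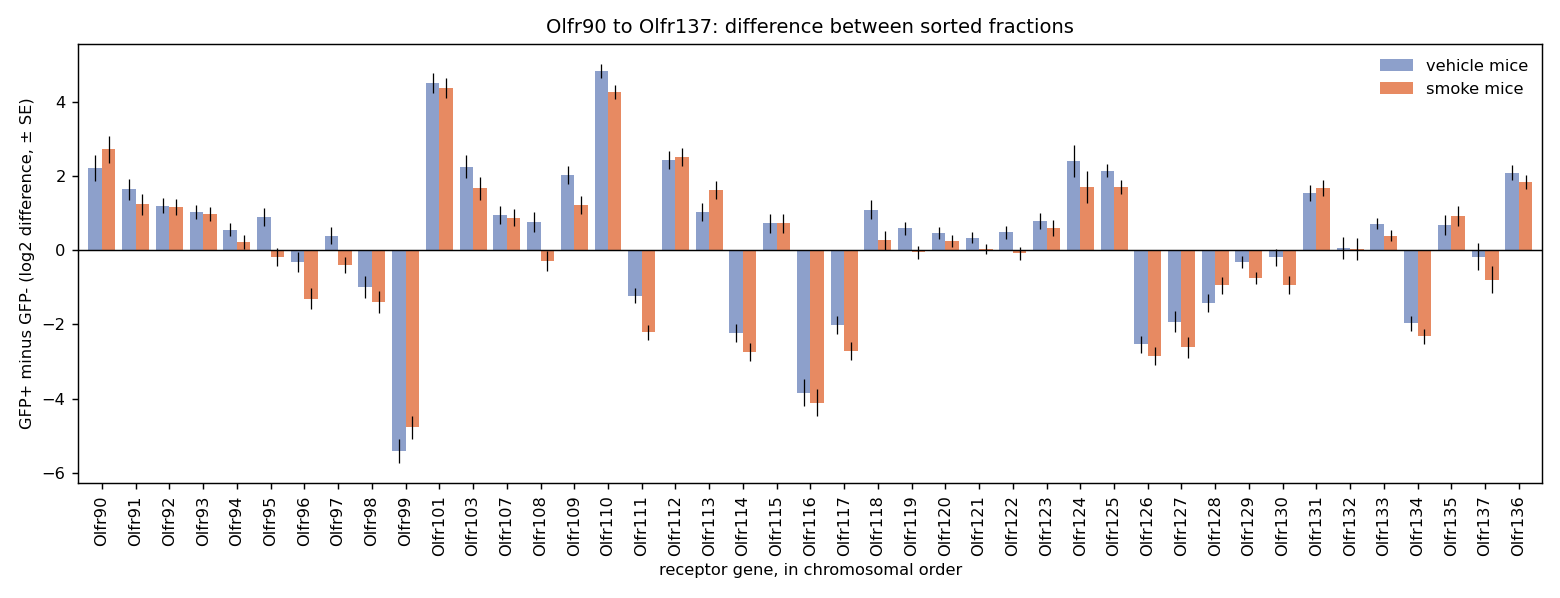
Difference between sorted fractions (GFP+ minus GFP-, log2, vertical axis) for the 43 receptors in chromosomal order, in vehicle mice (blue) and smoke mice (orange). Bars are the fitted differences and lines their standard errors. Olfr110 and Olfr101 reached above 4 in both exposures, and Olfr99 went below -4. Of 42 neighbouring pairs, 7 were called opposite ways in both exposures.

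Olfr110 and Olfr101 had the widest differences towards GFP+ cells. On the 4 vehicle arrays in order of replicate, Olfr110 read 12.32, 12.19, 11.99 and 12.44 in GFP+ and 7.32, 7.80, 7.41 and 7.11 in GFP- cells. In smoke mice it read 12.38, 11.95, 11.93 and 12.30 in GFP+ and 7.78, 7.74, 7.51 and 8.43 in GFP- cells. Every GFP+ array exceeded every GFP- array by more than 3. The differences were 4.83 in vehicle (SE 0.19, adjusted p = 1.75e-11) and 4.27 in smoke mice (SE 0.19, adjusted p = 8.18e-11), or 28.4-fold and 19.3-fold on the deposited scale. Such folds depend on that scale, on which 0.946% of all values exceed the ceiling of a 16-bit scanner.

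Olfr101, of MOR250, read 11.53, 11.94, 12.40 and 12.77 in vehicle GFP+ cells and 7.75, 8.01, 7.17 and 7.70 in vehicle GFP- cells. Its smoke values were 12.30, 11.95, 12.12 and 11.94 in GFP+ and 8.20, 7.56, 7.01 and 8.06 in GFP- cells. The fractions were again far apart, by 4.50 in vehicle (SE 0.27, adjusted p = 1.36e-09) and 4.37 in smoke mice (SE 0.27, adjusted p = 2.25e-09). Within pools the difference ran from 3.78 to 5.23 and from 3.88 to 5.10, respectively. Its relatives Olfr103 (2.25 and 1.66) and Olfr109 (2.03 and 1.22) were also higher in both exposures.

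Olfr112, of MOR218, read 13.31, 13.17, 13.30 and 13.18 in vehicle GFP+ and 11.14, 11.42, 10.36 and 10.31 in vehicle GFP- cells. In smoke mice the values were 13.48, 13.51, 13.16 and 12.97 and 11.39, 10.52, 10.61 and 10.54. The groups did not overlap in either exposure, and the differences were 2.43 (SE 0.24, adjusted p = 4.70e-07) and 2.52 (SE 0.24, adjusted p = 3.72e-07). Olfr90, of MOR256, differed by 2.22 (SE 0.36, adjusted p = 1.09e-04) and 2.72 (SE 0.36, adjusted p = 1.47e-05). Its vehicle GFP+ values were 7.74, 9.36, 9.51 and 9.24, against 6.47 to 7.02 in vehicle GFP- cells, so 1 GFP+ array lay well below the other 3 without reaching the GFP- values.

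The broadly responsive receptor Olfr124 read 14.66, 12.58, 12.64 and 12.47 in vehicle GFP+ cells and 11.88, 10.48, 10.68 and 9.73 in vehicle GFP- cells. In smoke mice it read 12.79, 12.25, 12.36 and 12.55 and 10.92, 10.503, 10.84 and 10.85. Replicate 1 was the highest array in each fraction of both exposures, and the fractions of each exposure did not overlap. The sort differences were 2.40 in vehicle (SE 0.44, adjusted p = 3.63e-04) and 1.71 in smoke mice (SE 0.44, adjusted p = 0.00664), and within pools they ran from 1.96 to 2.78 and from 1.52 to 1.87. The smoke call was lost without smoke pools 2 and 4 (1.69, adjusted p = 0.124), whose GFP+ arrays had sustentacular list means of 12.53 and 12.90 against 11.93 and 11.89 in pools 1 and 3. Smoke minus vehicle in GFP+ cells was -0.60 (SE 0.44, unadjusted p = 0.188).

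Among the other members higher in both exposures, Olfr125 (2.15 and 1.71) of MOR218 and Olfr136 (2.09 and 1.84) and Olfr131 (1.54 and 1.67) of MOR256 had adjusted p of at most 1.84e-05. Olfr136 read 12.35 to 12.70 in vehicle GFP+ and 10.17 to 10.67 in vehicle GFP- cells, and 12.49 to 12.69 and 10.11 to 11.31 in smoke mice. Olfr91, Olfr92, Olfr93, Olfr107, Olfr113, Olfr115 and Olfr123 completed the 17, with differences from 0.60 to 1.64.

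**Figure D2:**
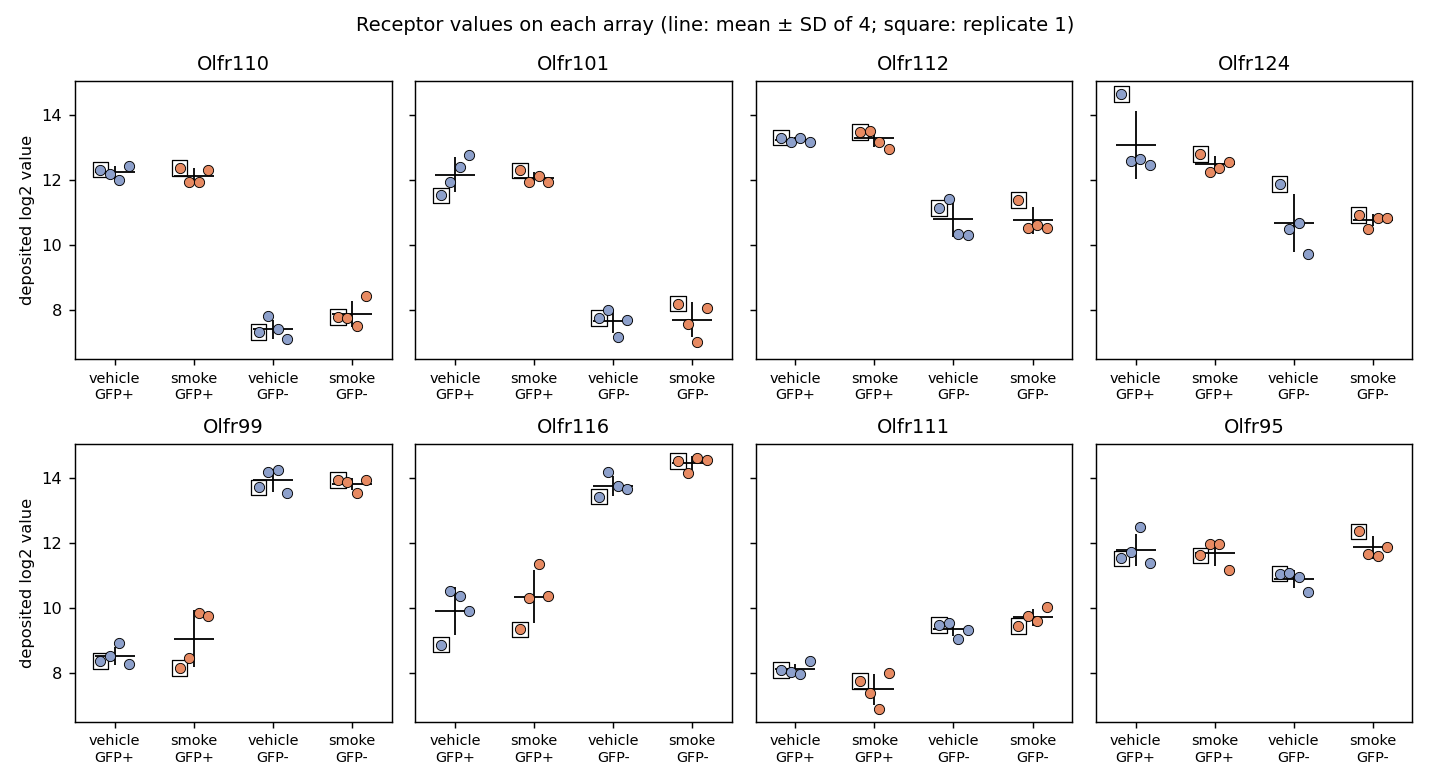
Deposited log2 values (vertical axis) of 8 receptors on each of the 16 arrays, by group. Circles are arrays, squares mark replicate 1, and lines give the mean ± SD of 4 arrays. Olfr110, Olfr101, Olfr112 and Olfr124 were higher in GFP+ cells, Olfr99, Olfr116 and Olfr111 were higher in GFP- cells, and Olfr95 had its lowest values in vehicle GFP- cells.

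On the other side, Olfr99 of MOR156 had the widest difference of any member. It read 8.35, 8.52, 8.91 and 8.26 in vehicle GFP+ and 13.71, 14.19, 14.24 and 13.55 in vehicle GFP- cells. In smoke mice it read 8.14, 8.45, 9.83 and 9.76 and 13.93, 13.86, 13.55 and 13.92. The GFP- arrays lay within a narrow band in both exposures, while smoke GFP+ replicates 3 and 4 were above the other GFP+ arrays. The differences were -5.41 in vehicle (SE 0.31, adjusted p = 8.84e-10) and -4.77 in smoke mice (SE 0.31, adjusted p = 4.59e-09), so Olfr99 was 42.5-fold and 27.3-fold lower in GFP+ cells.

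Olfr116 of MOR218 read 8.87, 10.501, 10.38 and 9.89 in vehicle GFP+ cells and 13.42, 14.17, 13.74 and 13.67 in vehicle GFP- cells. Its smoke values were 9.33, 10.31, 11.36 and 10.37 in GFP+ and 14.52, 14.14, 14.60 and 14.55 in GFP- cells. No array of one fraction reached the other, and the differences were -3.84 (SE 0.36, adjusted p = 2.93e-07) and -4.11 (SE 0.36, adjusted p = 1.53e-07). Olfr117, its neighbour, of MOR256, differed by -2.01 and -2.71 (adjusted p = 3.32e-06 and 1.17e-07).

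Olfr126, Olfr127 and Olfr128 lie side by side, all of MOR218, and all were lower in GFP+ cells. Olfr126 read 7.42, 7.49, 6.99 and 7.67 in vehicle GFP+ and 10.595, 9.85, 9.83 and 9.44 in vehicle GFP- cells, a difference of -2.54 (SE 0.23, adjusted p = 2.09e-07). In smoke mice it differed by -2.85 (SE 0.23, adjusted p = 6.09e-08). Olfr127 differed by -1.93 and -2.61 (adjusted p = 4.11e-05 and 1.57e-06). Olfr128 had a vehicle GFP+ mean of 6.38 ± 0.53 (SD, n = 4), at background, so GFP+ cells were lower by at least 1.18 on the log2 scale in vehicle mice, where the adjusted p was 1.21e-04. In smoke mice it differed by -0.94 (adjusted p = 0.00506).

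Olfr114 of MOR218 differed by -2.23 and -2.75 (adjusted p = 1.24e-06 and 1.23e-07) and Olfr134 of MOR256 by -1.97 and -2.32 (adjusted p = 4.79e-07 and 8.11e-08). Olfr98, beside Olfr99 and also of MOR156, differed by -0.996 and -1.40 (adjusted p = 0.0119 and 0.00137). Olfr111 read 8.08, 8.02, 7.97 and 8.35 in vehicle GFP+ cells against 9.46, 9.54, 9.04 and 9.30 in vehicle GFP- cells. In smoke mice its values were 7.74, 7.36, 6.88 and 7.99 and 9.44, 9.76, 9.59 and 10.04. The fractions did not overlap, and the difference was -1.23 in vehicle (SE 0.20, adjusted p = 1.35e-04) and -2.21 in smoke mice (SE 0.20, adjusted p = 2.14e-07).

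Receptors of both directions were interleaved along the chromosome. Among 42 pairs of neighbouring measured members, 7 were called opposite ways in both exposures. What a random order of the same calls would give was not computed, for these pairs or for the runs below. The counts therefore do not show that position mattered. These were Olfr99 and Olfr101, Olfr110 and Olfr111, Olfr111 and Olfr112, Olfr113 and Olfr114, Olfr114 and Olfr115, Olfr115 and Olfr116, and Olfr125 and Olfr126. When the arrays were centred on the other receptors, as described below, 4 of the 7 pairs were still called opposite ways in both exposures. The other 3 hold Olfr113 or Olfr115, which then did not have the same call in both exposures. Between Olfr110 and Olfr111, whose windows are printed above, the vehicle difference turned from 4.83 to -1.23, and between Olfr99 and Olfr101 from -5.41 to 4.50. There were also runs of one direction. Olfr90 to Olfr93 were 4 neighbours higher in GFP+ cells, Olfr101 to Olfr107 were 3, and Olfr123 to Olfr125 were 3. Olfr126 to Olfr128 were 3 neighbours lower, and the 5 neighbours Olfr118 to Olfr122 did not have the same call in both exposures.

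Subfamilies differed in how their members were divided, as a description without a test. All 3 MOR250 genes were higher in GFP+ cells in both exposures, with differences of 2.03 to 4.50 in vehicle mice. MOR218 was split, with 4 of its 9 genes higher (Olfr112, Olfr113, Olfr125 and Olfr115, the last at about 0 under the centring below) and 5 lower (Olfr114, Olfr116, Olfr126, Olfr127 and Olfr128). Of the 16 MOR256 genes, 8 were higher and 2 lower (Olfr117 and Olfr134). MOR156 held 1 higher gene, Olfr107, and 2 lower ones. On the deposited scale none of the 7 MOR263 genes was called the same way in both exposures, and their differences stayed between -0.31 and 1.09 in vehicle and between -0.75 and 0.26 in smoke mice.

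**Figure D3:**
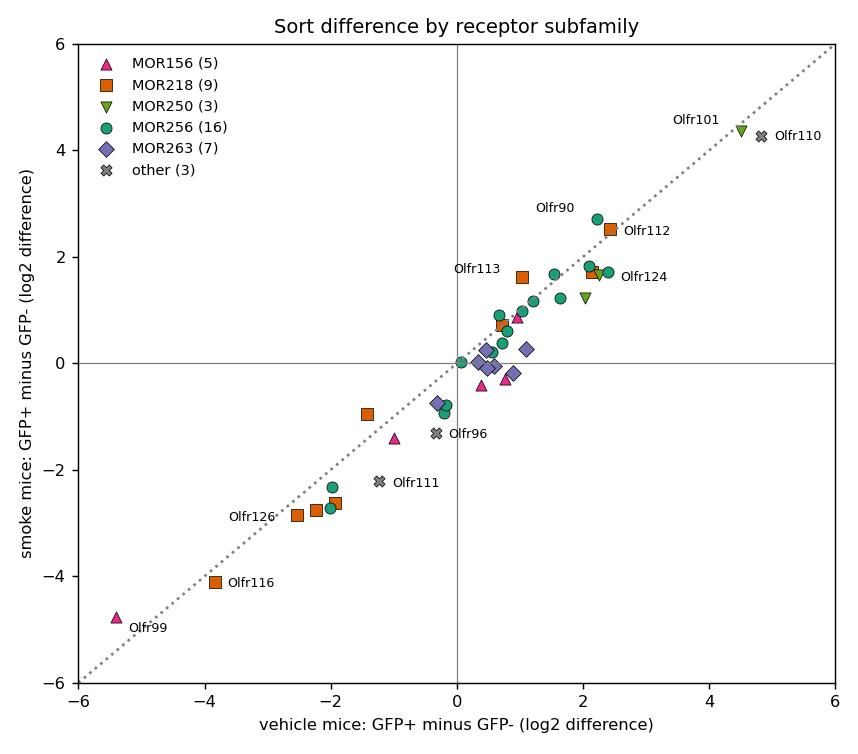
Difference between sorted fractions (GFP+ minus GFP-, log2) of each receptor in vehicle mice (horizontal axis) and smoke mice (vertical axis), with symbols by subfamily and gene numbers in parentheses. The dotted line marks equal differences. MOR218 (squares) lies on both sides of 0, MOR250 (downward triangles) on the positive side, and MOR263 (diamonds) near 0 on the deposited scale.

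These directions are those of the deposited scale, on which 70.1% of the other receptors were above 0 in vehicle and 65.4% in smoke mice. When every array was instead centred on the median of the other odorant receptors, the median of all genes moved to -0.56 in vehicle and -0.58 in smoke mice. Then 12 members were higher and 15 lower in vehicle mice, and 10 were higher and 23 lower in smoke mice, with member medians of -0.06 and -0.51. Of all 19505 genes, 483 were then higher and 12500 lower in vehicle mice, and 419 and 13251 in smoke mice. Of the 1037 other receptors, 392 were higher and 355 lower in vehicle mice, and 367 and 405 in smoke mice. Relative to the other receptors, 9 of the 17 stayed higher in both exposures, which were Olfr90, Olfr92, Olfr101, Olfr103, Olfr110, Olfr112, Olfr125, Olfr131 and Olfr136. All 10 that were lower stayed lower, and 5 more were then lower in both exposures, making 15. These were Olfr96, Olfr130 and Olfr137 and, of MOR263, Olfr121 and Olfr129. Olfr115 (-0.01 in vehicle mice) and Olfr123 (-0.13 in smoke mice) changed sign, and Olfr124 was at 1.67 in vehicle (adjusted p = 0.00421) and 0.98 in smoke mice (adjusted p = 0.0590). For MOR263 the centred differences were below 0 for all 7 genes in smoke mice, from -1.47 for Olfr129 to -0.46 for Olfr118.

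Of the 16 members without the same call in both exposures, 8 were higher in GFP+ cells of vehicle mice alone, 18.6% of the members against 11.4% of all genes and 8.29% of the other receptors. These were Olfr94, Olfr95, Olfr108, Olfr118, Olfr119, Olfr120, Olfr122 and Olfr133, of which 5 belong to MOR263. Olfr108 was at or below background in both fractions of vehicle mice (means of 6.40 in GFP+ and 5.64 in GFP- cells). Its call, which the counts include, is therefore not reliable. In smoke mice alone, Olfr135 was higher (0.91) and Olfr96 (-1.30), Olfr129 (-0.75) and Olfr130 (-0.93) were lower. Of all genes, 5.4% were higher and 1.48% lower in smoke mice alone, and of the other receptors 4.44% and 5.59%. Olfr97, Olfr121, Olfr132 and Olfr137 passed in neither. The change of a sort difference between exposures passed for 0 of these 16 genes, as given below, so the calls do not show that the exposures differed.

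Smoke odour against vehicle gave no call for any of the 43 receptors. In GFP+ cells 0 passed in limma, where 0.108% of all genes and 1.54% of the other odorant receptors did, either way. At an unadjusted p below 0.05, 0 members were higher and 2 lower, against 2.63% and 2.17% of all genes. Leaving out single arrays gave 1 to 4 lower (4 without vehicle GFP+ replicate 4) and up to 2 higher. The 2 members are 4.65% of the 43, against 4.80% of all genes and 18.4% of the other receptors in either direction. With a trended and robust variance model 0 passed as well, with 0 higher and 3 lower at the unadjusted threshold. Differences ran from -0.66 to 0.53 with a median of -0.08 (-0.05 over the other receptors). That median was -0.02 without vehicle GFP+ replicate 3, -0.14 without smoke GFP+ replicate 3, and -0.15 without vehicle GFP+ replicate 1 or without the pools numbered 1. A total of 14 of the 43 were above 0, 32.6% against 45.0% of the other receptors. The smallest p-values were those of Olfr111 (-0.61, SE 0.20, unadjusted p = 0.00772, adjusted p = 0.738) and Olfr96 (-0.66, SE 0.27, unadjusted p = 0.0270, adjusted p = 0.999). Olfr96 read 10.21, 11.15, 10.56 and 10.00 in smoke and 10.80, 11.53, 11.05 and 11.16 in vehicle GFP+ cells, so the groups overlapped. Olfr117 (-0.49) and Olfr113 (0.45) followed, with unadjusted p of 0.0531 and 0.0856. Olfr119 was the one member whose GFP+ arrays did not overlap between exposures (-0.25), where 1.34% of all genes lay apart in that direction. It read 9.53 to 9.73 in smoke and 9.76 to 10.04 in vehicle mice.

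In GFP- cells 0 of the 43 passed in limma either way, against 0.128% of all genes and 2.22% of the other receptors. At an unadjusted p below 0.05, 8 members were higher after smoke and 0 were lower. The 8 are 18.6% of the members. Over all genes the shares were 3.14% higher and 2.58% lower, and over the other receptors 11.3% and 9.45%. The 8 were Olfr95, Olfr97, Olfr108, Olfr109, Olfr110, Olfr119, Olfr122 and Olfr126. Olfr108 was below background in vehicle GFP- cells (5.64) and close to it in smoke GFP- cells (6.27), so its place among the 8 is not reliable. Without smoke pools 2 and 4 this count was 2, without the pools numbered 1 it was 3, and with the trended and robust model 9, while 0 passed after adjustment in each. Single arrays also moved it, to 2 without smoke GFP- replicate 4, 3 without smoke GFP- 1, 4 without vehicle GFP- 1 or 3, and 13 without smoke GFP- 3. The median difference was 0.24 (0.16 over the other receptors), and 33 of 43 were above 0, 76.7% against 64.5% of the other receptors.

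Olfr95 of MOR263 had the smallest p of these. It read 12.35, 11.64, 11.59 and 11.86 in smoke GFP- and 11.05, 11.06, 10.94 and 10.498 in vehicle GFP- cells, so all 4 smoke arrays lay above all 4 vehicle arrays. The difference was 0.97 (SE 0.24, unadjusted p = 0.00102, adjusted p = 0.327). In GFP+ cells it read 11.61, 11.97, 11.97 and 11.16 in smoke and 11.52, 11.73, 12.48 and 11.38 in vehicle mice, and the groups overlapped (-0.10, SE 0.24). Olfr122 (0.44, adjusted p = 0.776) and Olfr97 (0.54, adjusted p = 0.854) were the 2 others whose groups lay apart, where 1.43% of all genes did so in this direction. Olfr122 read 9.78, 10.04, 9.71 and 9.87 after smoke and 9.11, 9.46, 9.49 and 9.56 after vehicle. Olfr110, low in GFP- cells, was at 7.87 ± 0.40 after smoke and 7.41 ± 0.29 after vehicle (SD, n = 4), a difference of 0.46 with overlapping groups (adjusted p = 0.842).

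MOR263 stood on one side in GFP- cells. Its 7 genes differed by 0.23 to 0.97 between smoke and vehicle, with a median of 0.40, and none passed. In GFP+ cells the same genes ran from -0.41 to 0.02, with a median of -0.12. This was not particular to MOR263. The 3 MOR250 genes ran from 0.05 to 0.53 in GFP- cells (median 0.53) and from -0.28 to -0.06 in GFP+ cells (median -0.08). MOR156 had medians of 0.52 in GFP- and 0.07 in GFP+ cells, with GFP- differences from -0.11 to 0.63. MOR256 had medians of 0.13 in GFP- and -0.08 in GFP+ cells, and MOR218 medians of 0.16 and 0.04. Probe sequences were not used here, and close relatives such as Olfr119 and Olfr122 could share signal, so the genes of a subfamily are not independent readings.

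Whether the exposure effect differed between the fractions was tested by the interaction term, smoke minus vehicle in GFP+ less the same in GFP- cells. Here 0 members passed in limma, against 0.174% of all genes and 2.99% of the other receptors. At an unadjusted p below 0.05, 0 were higher and 10 lower, and the 10 are 23.3% of the members. Over all genes the shares were 2.61% higher and 3.1% lower, and over the other receptors 11.6% and 14.4%. That count was 4 without smoke pools 2 and 4, 5 without the pools numbered 1, and 13 with the trended and robust model, which also passed 0. It was 6 without vehicle GFP+ replicate 3 or smoke GFP+ replicate 4, and 15 without smoke GFP- replicate 3. The smallest p was that of Olfr111 (-0.98, SE 0.29, unadjusted p = 0.00330, adjusted p = 0.536), which was lower after smoke in GFP+ cells (-0.61) and higher in GFP- cells (0.37), neither of which passed. Olfr95 (-1.07, adjusted p = 0.677), Olfr108 (-1.05, adjusted p = 0.819) and Olfr119 (-0.65, adjusted p = 0.825) followed. Olfr108 was at background in 3 groups, so its differences are not reliable in size. The member median was -0.35, against -0.21 over the other receptors, and 8 of the 43 were above 0, 18.6% against 37.2% of the other receptors and 48.3% of all genes. The vehicle GFP+ and GFP- groups, and the smoke groups, each enter both the exposure and the sort comparisons.

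**Figure D4:**
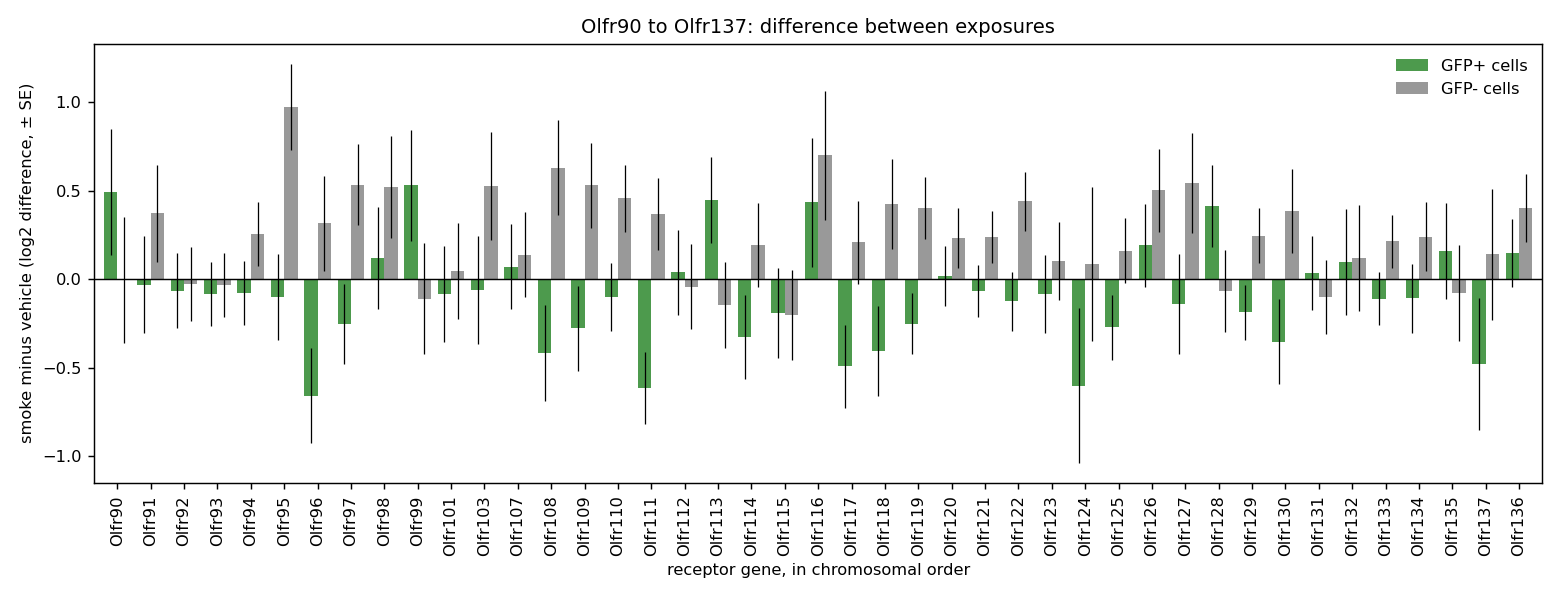
Difference between exposures (smoke minus vehicle, log2, vertical axis) for the 43 receptors in chromosomal order, in GFP+ cells (green) and GFP- cells (grey). Bars are the fitted differences and lines their standard errors. No difference passed after adjustment, and all lie between -0.66 and 0.97.

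Other genes listed as neighbours, mostly of the MHC class I region, held sort calls in both directions. The share of the list called was near that of all genes, of which 39.6% were called either way in vehicle and 32.7% in smoke mice. Of the 35 listed, 34 were measured, and in each exposure 4 were higher and 8 lower in GFP+ cells, against 24.2% and 15.4% of all genes in vehicle and 18.3% and 14.4% in smoke mice. The list median was 0.14 in vehicle and 0.11 in smoke mice, beside 0.17 and 0.15 over all genes, and it turned to -0.60 and -0.62 when the arrays were centred on the other receptors. H2-T23, a class I gene of the MHC, differed by -2.88 in vehicle (SE 0.23, adjusted p = 3.76e-08) and -2.59 in smoke mice (SE 0.23, adjusted p = 1.44e-07). Ier3, an early response gene, differed by -3.81 and -3.92 (SE 0.31 each, adjusted p = 5.58e-08 and 4.41e-08). Both stayed below 0 under that centring, H2-T23 at -3.61 and -3.32 and Ier3 at -4.54 and -4.65. The immune markers given above moved the same way, and their part in these values was not tested. None of the 34 passed for smoke against vehicle in either fraction or in the interaction. Between 18 and 20 of them were at or below background, depending on the group.

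The genes through which an odorant receptor signals or is chosen were listed as well, 25 of 27 of them measured. On the deposited scale 12 were higher in GFP+ cells and 0 lower in vehicle mice, and 7 and 0 in smoke mice, beside those same shares of all genes (24.2% and 15.4%, and 18.3% and 14.4%). Pde1c, a phosphodiesterase of olfactory cilia, differed by 0.82 and 0.79 (SE 0.10 each, adjusted p = 3.40e-06 and 5.40e-06). Ano2, the calcium-activated chloride channel of the cilia, differed by 0.60 and 0.51 (SE 0.08 each, adjusted p = 2.05e-05 and 1.22e-04). The list median was 0.34 in vehicle and 0.19 in smoke mice, and it turned to -0.39 and -0.53 when the arrays were centred on the other receptors. Ano2 then changed sign (-0.13 and -0.21) and Pde1c stayed above 0 (0.08 and 0.07). None of the 25 passed for smoke against vehicle in either fraction or in the interaction.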

How the data were processed

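The authors deposited log2 values for 16 arrays (2.29 to 18.6), which were not rescaled. Affymetrix Expression Console made them, per the submitters' processing notes. No version or algorithm was given in the sources used here. Sorted values of any 2 arrays differed by at most 0.451. Each gene was its probe set of highest mean, giving 19505 genes from 28846 probe sets. Contrasts of 4 group means were fitted with limma 3.58.1 (lmFit and eBayes) in R 4.3.3. Two-sided p-values were adjusted over all genes by Benjamini-Hochberg, at 0.05. Precision is limited by the 4 arrays in a group.

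The members named were, for each contrast, up to 10 each way of largest change among those that passed and the 4 of smallest p. Added to these were the 5 of highest and the 5 of lowest mean. Others are named as part of a counted group. The members, gene lists, marker lists and the choice of smoke pools 2 and 4 were made with earlier results of these data known.

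GFP+ and GFP- arrays of one exposure and number were taken as the same pool, since 8 pools gave 16 arrays. Their deviations correlated at 0.05 to 0.22, and pools were a block in an alternative fit of the sort comparisons and of the interaction. For smoke against vehicle, where no pool is in both groups, the alternative block was the replicate number. The other alternatives were quantile normalization, centring on the other receptors, a background filter, mean probe sets, only the arrays compared, a trended and robust variance model and leaving out arrays or pools. The fit was tested on simulated data. Names, synonyms and windows came from RefSeq tables, and figures were drawn with matplotlib 3.10.9.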

Additional observations from a re-analysis of the deposited data

Results flagged for a closer look

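Within groups of 4 arrays, 1 array stood apart from the other 3 by Dixon's test in 6 of 128 member and group combinations, and chance flags about 1 in 20. In vehicle GFP+ cells, replicate 1 was the lowest array for Olfr90 (7.74, against 9.24 to 9.51), Olfr125 (10.72, against 11.24 to 11.27) and Olfr130 (11.90, against 12.26 to 12.32). On the same array Olfr124 was the highest, at 14.66 against 12.47 to 12.64. In smoke GFP- cells replicate 1 was the highest array for Olfr112 (11.39, against 10.52 to 10.61). In vehicle GFP+ cells replicate 2 was the lowest for Olfr131 (13.48, against 13.61 to 13.63), a small gap on a tight group. The arrays numbered 1 also had low values of the Y-linked gene Uty, at 3.52 to 6.57 against 10.63 to 12.14 on the others, and its part in the receptor values was not tested.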

How the results depend on the processing

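Each result was computed under 26 settings, the main fit included. Taking mean probe sets could not move a member's values, since each member had a single probe set. The 0 calls for smoke against vehicle, in both fractions and in the interaction, stayed 0 under each. Leaving out each array in turn gave 20 to 26 members higher and 10 to 11 lower in the vehicle sort, and 16 to 19 higher and 13 lower in the smoke sort. Centring on the other receptors gave 12 higher in the vehicle sort (main 25), and 10 higher and 23 lower in the smoke sort (main 18 and 13), with centred medians of -0.06 and -0.51. By construction it subtracts the receptor median, and under it 12500 of all 19505 genes were lower in the vehicle sort and 13251 in the smoke sort. Without smoke pools 2 and 4, 10 were higher and 10 lower in the smoke sort (main 18 and 13), on 2 smoke pools. Of 52 named values, only the smoke sort difference of Olfr124 lost its call, under those same settings (0.98, adjusted p = 0.0590, and 1.69, adjusted p = 0.124). Smoke sort calls outside the 52 were lost as well. Without smoke pools 2 and 4 these included Olfr92 (adjusted p = 0.0772), Olfr93, Olfr107, Olfr109 (1.19, adjusted p = 0.0502) and Olfr128 (-0.96, adjusted p = 0.0584). Under centring they included Olfr91 (0.50, adjusted p = 0.0702), Olfr93, Olfr107 and Olfr109 (0.49, adjusted p = 0.0519). With the 8 pools as a replicate block, 23 were higher and 10 lower in the vehicle sort, and 17 and 13 in the smoke sort. It changed no named call, and ended that of Olfr115 (adjusted p = 0.0528 and 0.0582). Smoke and vehicle arrays of one number were not taken as pairs, since no label says what they share and their deviations correlated at 0.08 to 0.20 in GFP+ and -0.08 to 0.18 in GFP- cells, not all above 0.1. In GFP+ cells 8 of 8 arrays correlated best with their own number in the other exposure, and in GFP- cells 2 of 8, a hint from the data and not the design. With the number as a replicate block 0 members passed for smoke against vehicle in either fraction. At an unadjusted p below 0.05, 5 were then lower and 1 higher in GFP+ cells (main 2 and 0), and 8 higher and 0 lower in GFP- cells, as without it. In the interaction, with pools as the block, 14 were lower at that threshold (main 10), and 0 passed. Leaving out the pools numbered 1, chosen after seeing the data, gave 22 and 10, and 17 and 12. No direction reversed among the named values. Without vehicle GFP+ replicate 1 the interaction median of the members was -0.50 (main -0.35). Dim signal limits Olfr108 and Olfr128, near background.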
